A study of Homo sapiens with 6 samples.

Results

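Gene expression in A375 cells was compared after 16 h of 10 µM vemurafenib and after 16 h of the solvent DMSO. The comparison rested on 1 array per condition, which is 2 of the 6 arrays of the series, and it was made over every probe set of both arrays. A375 is an established line of human melanoma cells that carry mutant BRAF, and both 16 h groups were the same line in the same medium, differing by the labels in the drug alone. The other arrays were all taken at 6 h: DMSO, 10 µM vemurafenib, 100 nM AT9283 (an inhibitor of Aurora kinases and JAK2), and vemurafenib with AT9283. From these only the DMSO and vemurafenib arrays were used, as values beside the 16 h values. A single cell line in culture has no stroma, immune cells or matrix of a tumour, and RNA of the whole culture was measured, so fewer cells of a type and less RNA per cell cannot be told apart.

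Vemurafenib blocks mutant BRAF, the kinase that keeps MEK and ERK active in such cells. ERK activity maintains cyclin D, which with CDK4 and CDK6 inactivates the retinoblastoma protein and frees E2F factors to transcribe the genes of DNA replication. Melanoma cells also move between states, from pigment-cell-like ones governed by MITF and SOX10 to undifferentiated, adhesive ones with AXL, EGFR and TEAD activity, and BRAF inhibitors are known to shift cells along this axis and to change their metabolism.

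Values are log2 of the deposited intensity throughout, and a difference is vemurafenib minus DMSO on that scale, so that 1 means 2-fold. Each gene was read from 1 probe set, and levels of different genes were not compared because probe sets differ in their response. A gene was called higher (rose) or lower (fell) when its difference was at least 1 and its higher array reached log2 6, an intensity of 64. The rule grades size alone and tests nothing, since 1 array a condition gives no replicate error. Of 19775 genes, 9520 reached that floor on an array, 499 rose (2.52% of all genes, 5.24% of those at the floor) and 540 fell (2.73% and 5.67%). Those shares are the background for each list. The only pair of arrays without drug, DMSO at 16 h and at 6 h, which also differ in time, had an SD of differences of 0.24 over 9017 genes, with 18 higher and 7 lower past the same rule (0.277%). The corresponding SD of the vemurafenib differences at 16 h was 0.71. The median intensities were 20.7 with DMSO and 21.3 with vemurafenib. On both 16 h arrays 4493 probe sets (8.23%) carried exactly the same value, against 592 to 731 for the 6 pairs of 6 h arrays. Pairs of a 6 h and a 16 h array shared 84 to 103 equal values. The median difference over all genes was 0.00, and the cause of these equal values was not tested. Whether the arrays of both times were processed together was not tested either, so the DMSO pair may differ in more than time. GAPDH differed by -0.01 and ACTB by -0.18.

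**Figure D1:**
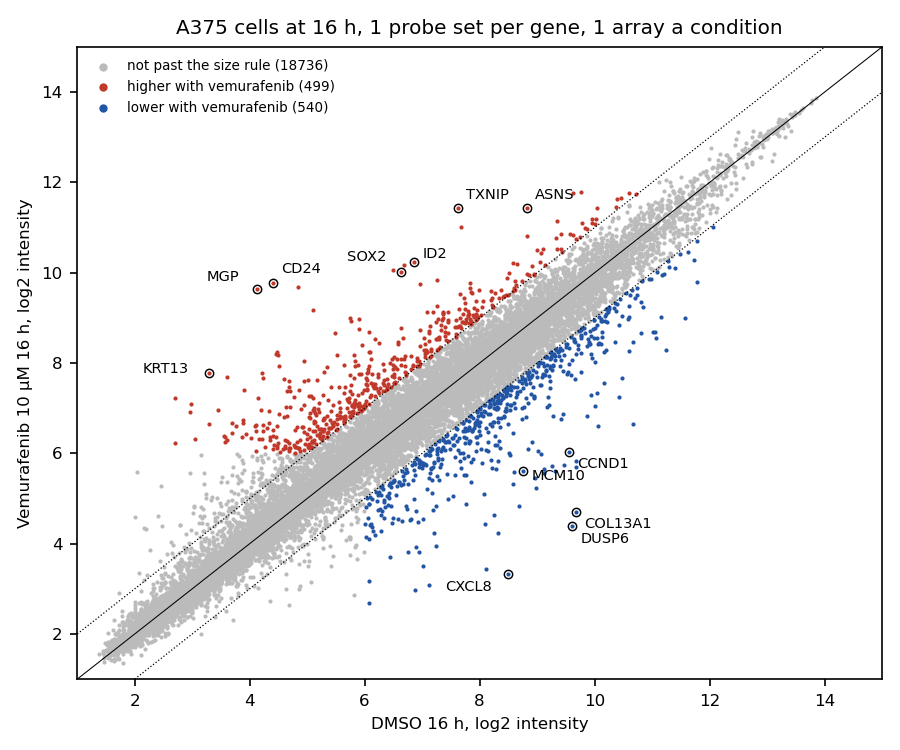
Log2 intensity of each of 19775 genes with DMSO (x axis) and vemurafenib (y axis) at 16 h, 1 array each; red genes rose and blue genes fell by the size rule, the solid line marks equal values and the dotted lines a 2-fold difference. The 499 higher and 540 lower genes lie outside the dotted lines, with DUSP6, COL13A1 and CXCL8 far below the diagonal and MGP, CD24 and KRT13 far above it.

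ERK output was read first, since it reports on the drug's target pathway. Of 25 measured ERK-dependent genes, 21 reached the floor and all 21 fell, with a median of -2.96 over the 25. DUSP6 fell from 9.60 to 4.38, a 37.3-fold lower intensity for the phosphatase that dephosphorylates ERK and is transcribed under its control. The same gene differed by -5.23 after 6 h. SPRY2 fell from 9.67 to 5.69, and SPRY2 encodes a feedback inhibitor of receptor signalling. FOSL1 fell from 9.30 to 5.60, and FOSL1 encodes an AP-1 subunit. The ETS factors ETV5 (-3.86), ETV4 (-3.75) and ETV1 (-2.96), the phosphatase gene DUSP4 (-3.84), the stress-responsive IER3 (-4.03) and MYC (-3.30) were also lower. ETV4 stood at -0.72 after 6 h. EGR1, GPR3, EPHA4 and SPRED3 were below the floor on both arrays.

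Over all genes, the highest difference belonged to MGP, matrix Gla protein, an inhibitor of calcification. MGP rose from 4.13 to 9.64, so that it crossed the floor only with drug. CD24 rose from 4.40 to 9.77, a surface glycoprotein gene. NUPR1 rose from 4.85 to 9.68, a stress-induced chromatin protein gene, and INHBE rose from 2.70 to 7.23, which encodes an activin subunit. KRT13 rose from 3.30 to 7.79, a keratin gene of stratified epithelium. They were followed by SLC5A7 (4.11), the choline transporter, STON1 (4.09), MAP1LC3C (4.08), an LC3 family gene of autophagy, ACKR3 (3.96), a scavenging chemokine receptor, TXNIP (3.81), CLIC3 (3.77), SERPINF1 (3.75), which encodes the secreted serpin PEDF, CYP1B1 (3.68), S100P (3.56) and VAV3 (3.55). At the other end, next to DUSP6, CXCL8 fell from 8.49 to 3.32, the gene of the neutrophil chemokine interleukin 8, and COL13A1 fell from 9.68 to 4.71, a transmembrane collagen gene. SH2D1B (-4.03), ADGRF1 (-3.89), TLR4 (-3.67), UBASH3B (-3.63), EPHA2 (-3.72) and NT5E (-3.55), the last of them the ectonucleotidase CD73, completed the lowest genes with those of ERK output. Differences of 4-fold or more were reached by 102 higher and 96 lower genes, and of 8-fold or more by 33 and 32.

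Cyclins D1, D3, E1 and E2 of the G1 phase fell, while cyclin D2 was below the floor. Of 17 measured G1 cyclins, CDKs and CDK inhibitors, 14 reached the floor, of which 7 fell and 1 rose (median over the 17, -0.64). With all probe sets of each gene averaged, 3 fell. Cyclin D1, the cyclin that ERK maintains, led them. CCND1 fell from 9.55 to 6.04, after a difference of -2.58 at 6 h. CCNE2 fell from 8.57 to 5.31, and this gene for a cyclin that activates CDK2 differed by only -0.48 at 6 h. CDC25A fell from 8.28 to 5.65, which encodes the phosphatase that activates CDK2. Cyclin D3 (-1.52), CDK2 (-1.32), cyclin E1 (-1.24) and the inhibitor CDKN2D (-1.17) fell less, and the other probe set of CDKN2D lay below the floor. The inhibitor gene CDKN1A, p21, was the member that rose, from 8.63 to 9.73, while CDKN1B, p27, stood at 8.87 with DMSO and 9.81 with vemurafenib, just under the size rule at 0.94. CDK4 (-0.11) and CDK6 (-0.64), the partners of cyclin D, did not pass the rule.

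Among 21 genes of the E2F, pocket protein and MuvB factors, 19 reached the floor, 6 fell and none rose, with a median of -0.76. This count rested on the choice of probe set, as 1 gene fell when all probe sets of each gene were averaged. The falling members were E2F8 (-1.87), E2F7 (-1.51) and E2F3 (-1.31), the B-MYB relative MYBL1 (-1.57), the pocket protein p107 gene RBL1 (-1.22) and LIN9 (-1.03). The atypical repressors E2F7 and E2F8 differed by -0.36 and 0.21 at 6 h. E2F1 lay below the floor on both 16 h arrays, at 5.85 with DMSO and 4.98 with vemurafenib. At 6 h the same probe set was above it, at 7.30 with DMSO and 7.02 with vemurafenib. Between the DMSO arrays, 16 h minus 6 h, E2F1 thus differed by -1.45. The retinoblastoma gene RB1 (-0.17) and its relative RBL2 (0.48), which is bound to the repressive complex of resting cells, did not pass the rule, and neither did FOXM1 (-0.14), the activator of mitotic genes.

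Many DNA replication genes fell. Of 29 genes that license and fire origins, 26 reached the floor and 18 fell, none rose, and the median was -1.17, against -0.02 after 6 h. Without probe sets that may match several transcripts, 9 of the 20 genes still measured fell. MCM10 fell from 8.76 to 5.60, an 8.91-fold lower intensity for a factor that activates the replicative helicase. All 6 subunits of the MCM2 to MCM7 helicase fell, by between 1.16 and 1.65. MCM4 fell from 10.06 to 8.42, MCM7 fell from 10.42 to 8.84 and MCM3 fell from 9.31 to 8.15, the smallest change of the 6. The loaders CDC6 (-1.76) and CDT1 (-1.02), the helicase cofactors CDC45 (-1.65), GINS2 (-1.67), GINS1 (-1.57) and GINS4 (-1.02), and the licensing inhibitor GMNN (-1.53) fell as well. Origin recognition genes split: ORC1 (-1.60) and ORC6 (-1.59) fell, while ORC2 (-0.08), ORC3 (0.05), ORC4 (-0.01) and ORC5 (-0.34) stayed under the rule. Of 30 genes for polymerases, the sliding clamp and replicating chromatin, all at the floor, 16 fell and none rose (median -1.04). UHRF1 fell from 10.80 to 8.67, the gene of the protein that carries DNA methylation through replication, after -0.29 at 6 h. POLE2 fell from 8.31 to 6.19, a subunit of the leading strand polymerase. PCNA fell from 11.40 to 10.11, the clamp itself. CLSPN (-2.17), RFC3 (-1.73), TIPIN (-1.71), CHAF1A (-1.61) and FEN1 (-1.60) were other members that fell. Of the clamp loader subunits RFC3, RFC4 (-1.35) and RFC2 (-1.10) fell, and RFC1 (-0.08) did not pass the rule. RFC5 had the same value on both arrays with its main probe set, while its 3 probe sets ranged from -1.20 to 0.00.

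The promoters of 4 of these falling genes are shown because they carry an E2F motif, the letters through which E2F factors are known to bind replication genes. Each line is a 60-base stretch of the 250 bases before a gene's start, 5′ to 3′ on the gene's strand, from RefSeq on GRCh38.p14, with the motif in capitals. They are the 4 genes with the lowest differences in both replication lists among those whose promoter holds the motif.
UHRF1, chr19:4909441-4909500, plus strand: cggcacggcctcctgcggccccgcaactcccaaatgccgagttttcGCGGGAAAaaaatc
RFC3, chr13:33818068-33818127, plus strand: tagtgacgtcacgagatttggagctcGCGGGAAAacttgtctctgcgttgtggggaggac
TIPIN, chr15:66356714-66356773, minus strand: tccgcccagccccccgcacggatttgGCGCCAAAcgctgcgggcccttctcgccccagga
GINS2, chr16:85688955-85689014, minus strand: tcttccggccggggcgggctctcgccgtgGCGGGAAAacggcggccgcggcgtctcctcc
The search used TTTCCCGC, TTTGGCGC, TTTCGCGC and TTTGCCGC on both strands, and the capitals above are the reverse complements of the first or the second of these. The motif stood in 8 of 24 licensing promoters and 8 of 26 polymerase and clamp promoters, against 3.40% of 27305 genes with a promoter entry. Over all 7976 genes at the floor with such an entry, 34 of the 470 with the motif fell (7.23%) and 8 rose (1.70%), while 401 of the 7506 without it fell (5.34%) and 395 rose (5.26%). Most genes with the motif therefore did not pass the rule, and the match is a description of letters. GINS2 was read from a probe set that may also match other transcripts, and its other probe sets lay below the floor.

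Genes of repair and of precursor supply fell in part. Of 20 measured genes of homologous recombination and Fanconi repair, 17 reached the floor, 8 fell and none rose (median -0.88, against 0.10 at 6 h), and 4 fell with averaged probe sets. EXO1 fell from 8.14 to 6.04, the gene of an exonuclease that resects broken ends. BLM (-1.66), BARD1 (-1.43), RAD51AP1 (-1.40), RAD54L (-1.27) and BRCA1 (-1.15) followed. Of 23 nucleotide synthesis genes, all at the floor, 8 fell and none rose (median -0.88). CTPS1 fell from 9.21 to 7.08, the gene of CTP synthase. RRM2 fell from 11.73 to 10.28, the limiting subunit of ribonucleotide reductase, while its partner RRM1 differed by -0.57. Thymidylate synthase, TYMS, differed by -0.88, and IMPDH2, of guanine nucleotide synthesis, by 0.36.

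Mitotic genes differed less. Of 52 measured, 51 reached the floor and 5 fell, none rose, with a median of -0.40, against 0.16 at 6 h. With quantile normalization, as with an offset of 16 added before the logarithm, 3 fell. MAD2L1 fell from 10.37 to 9.15, the spindle checkpoint gene with the lowest difference. The kinetochore genes SPC25 (-1.15) and CENPK (-1.13), the cytokinesis kinesin KIF23 (-1.04) and cyclin A2 (CCNA2, 9.72 to 8.72), which also acts in S phase, were the others. MKI67, the proliferation antigen Ki-67, stood at 8.68 with DMSO and 8.22 with vemurafenib, a difference of -0.46. Cyclin B1 (-0.50), CDK1 (-0.70) and AURKA (-0.63) stayed under the rule, and CCNB2 (0.09), KIF20A (0.11) and CDC25B (0.28) were above 0. On these arrays, then, 34 of 56 replication genes at the floor fell and 5 of 51 mitotic genes did.

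Promoters of 3 mitotic genes are shown for contrast with those of replication. The CHR element, TTTGAA, is the known docking site of the complexes that govern mitotic genes, and these are the members with the lowest differences whose 250 bases before the start hold it, displayed as above.
SPC25, chr2:168890621-168890680, minus strand: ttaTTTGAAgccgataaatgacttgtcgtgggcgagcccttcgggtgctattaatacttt
KIF23, chr15:69414267-69414326, plus strand: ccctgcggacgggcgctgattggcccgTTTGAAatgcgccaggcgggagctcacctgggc
ECT2, chr3:172750584-172750643, plus strand: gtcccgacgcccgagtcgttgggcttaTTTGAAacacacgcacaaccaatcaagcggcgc
The letters shown lie 247 bases before the start in SPC25, at the far end of the stretch searched, 55 in KIF23 and 115 in ECT2. CHR letters stood in 23 of 46 mitotic promoters, in none of 24 licensing promoters and in 16.1% of all genes with an entry. Whether the complexes bind at these letters was not tested. CCAAT on either strand stood in 38 of the 46, against 37.0% of all genes. Among the 7976 genes at the floor with an entry, 991 held CHR letters and 3386 held CCAAT. In the mitosis list, the 23 genes with CHR letters had a median difference of -0.36 and the 22 without -0.51, so that members with the letters had a median nearer to 0. ECT2, a regulator of cytokinesis, differed by -0.71 and did not pass the rule.

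**Figure D2:**
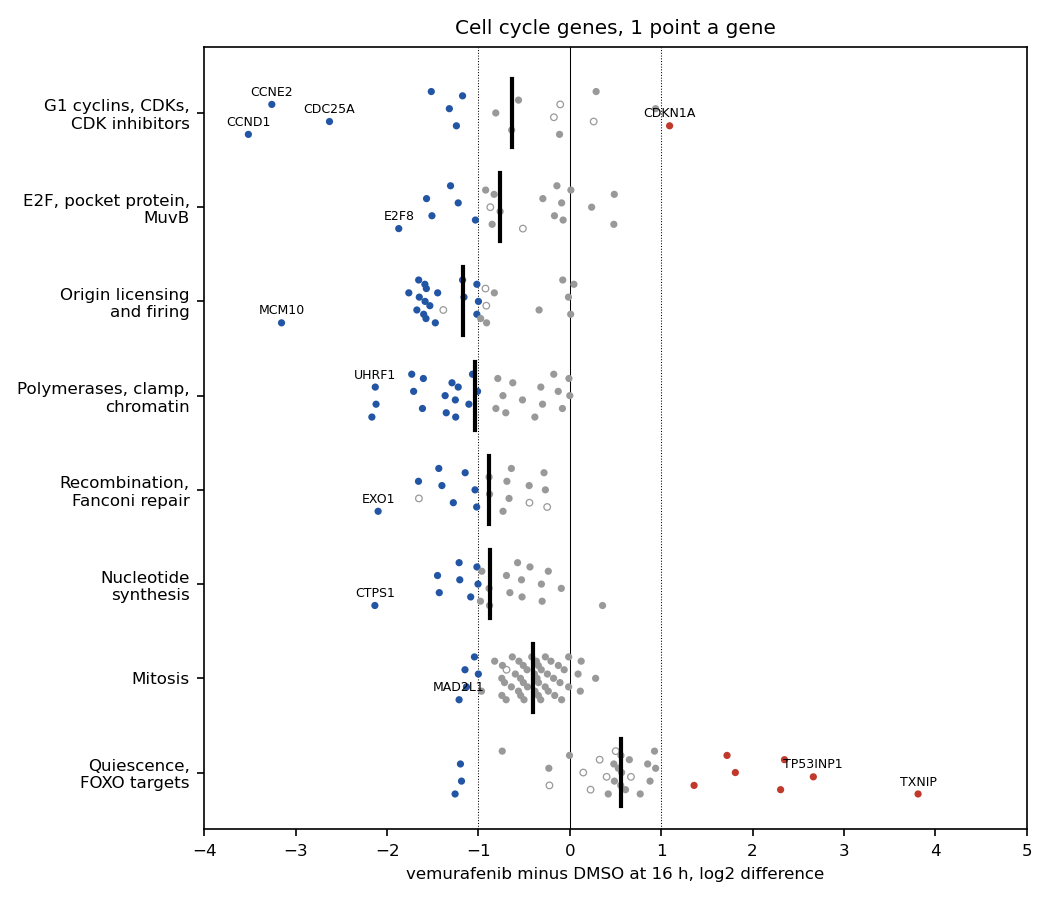
Difference between vemurafenib and DMSO at 16 h (x axis, log2) for each gene of 8 cell cycle lists, 1 array a condition; blue points fell and red points rose by the size rule, open points were below the floor on both arrays, black bars are medians over all measured members and dotted lines mark 2-fold. Origin licensing and polymerase genes are centred at -1.17 and -1.04, mitotic genes at -0.40 and the quiescence and FOXO targets at 0.56.

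Genes of quiescence included more that rose than fell, and most passed the rule in neither direction. Of 34 measured quiescence and FOXO target genes, 27 reached the floor, 7 rose and 3 fell, with a median of 0.56. Without probe sets that may match several transcripts 4 rose and 1 fell, and against the mean of both DMSO arrays 11 rose and 2 fell. That mean includes DMSO at 6 h. Between the DMSO arrays, 16 h minus 6 h, CCNG2 differed by 2.34 and ARRDC3 by 1.22, while ARRDC4 differed by -0.49. The part of this in the larger count was not tested. TXNIP rose from 7.63 to 11.44, a 14.0-fold higher intensity for the protein that binds thioredoxin and restrains glucose uptake, and its relative ARRDC4 (2.31) rose with it. TP53INP1 rose from 4.94 to 7.60 and TP53INP2 (1.81) rose too, both genes of autophagy-linked nuclear proteins. YPEL3 (2.35) and YPEL5 (1.72), of a family linked to growth arrest and senescence, and the repressor gene HBP1 (1.36) were the remaining ones. CCNG2, a FOXO target, differed by 0.77 and FOXO3 by 0.93. The Krüppel-like factor genes KLF2 (-1.26), KLF4 (-1.20) and KLF6 (-1.19) fell, and these respond to growth factors as well. Of 17 p53 target genes at the floor, 4 rose, which were CDKN1A, TP53INP1, ZMAT3 (1.09) and TP53I3 (1.05), and the nuclease gene AEN (-1.69) fell. MDM2 stood at 0.12 and GDF15 at -0.14.

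Transcription factors of the neural crest and the melanocyte lineage changed in both directions. Of 36 measured, 24 reached the floor, 7 rose and 5 fell, with a median of 0.28. With averaged probe sets 5 rose and 2 fell. SOX2 rose from 6.63 to 10.02, a 10.5-fold higher intensity for a stem cell factor, after 3.02 at 6 h. FOXD3 rose from 3.77 to 6.60, the neural crest factor gene, and SNAI2 rose from 3.60 to 6.29, whose 6 h difference was 0.32. Each of these 2 genes was below the floor with DMSO. ID2 rose from 6.86 to 10.24, an inhibitor of basic helix-loop-helix factors, with ID3 (1.25) beside it and ID1 at 0.88. SOX4 (1.63) and NR2F1 (1.03) rose as well, and NR2F1 differed by -0.40 at 6 h. TFAP2C (-1.85), TBX3 (-1.38), FOXD1 (-1.35), MSX1 (-1.33) and LEF1 (-1.01) fell, and all but LEF1 had differed by at least 1 at 6 h. MITF, the master regulator of melanocytes, stood at 8.63 with DMSO and 9.26 with vemurafenib and SOX10 at 8.71 with DMSO and 8.99 with vemurafenib, differences of 0.63 and 0.28, which are under the rule.

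The lineage label of the cells was checked through melanocyte markers. MITF, SOX10 and PAX3 were at the floor on both arrays, and MLANA, PMEL, TYR and TYRP1 were below it on both, so the transcription factors of the lineage were detected and its pigment products were not. MLANA read 4.30 with DMSO and 4.09 with vemurafenib, PMEL 4.83 with DMSO and 4.77 with vemurafenib and TYR 4.54 with DMSO and 4.73 with vemurafenib. The summed intensity of the 7 measured markers was 997 with DMSO and 1294 with vemurafenib. Over the 33 measured genes of pigment cells, 15 reached the floor, 3 rose and 3 fell, with a median of 0.00. ST6GALNAC2 rose from 3.89 to 7.41, a sialyltransferase gene, GPNMB rose from 7.83 to 9.76, a melanosomal glycoprotein gene, and the neuregulin receptor gene ERBB3 (1.08) rose. MLPH (-2.03), which links melanosomes to myosin, CDK2 (-1.32) and IVNS1ABP (-1.22) fell. Markers of other lineages were largely undetected: 17 of 24 were below the floor on both arrays, among them PTPRC, CD3E and CD14 of leukocytes, PECAM1 and CDH5 of endothelium, and EPCAM. The keratins KRT5 and KRT14 were the members that rose. The summed intensity of the 24 was 4539 with DMSO and 3606 with vemurafenib, and KRT18 alone turned its direction, since without KRT18 the sum was 1100 with DMSO and 1711 with vemurafenib. Their part in the results on keratins and adhesion was not tested.

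**Figure D3:**
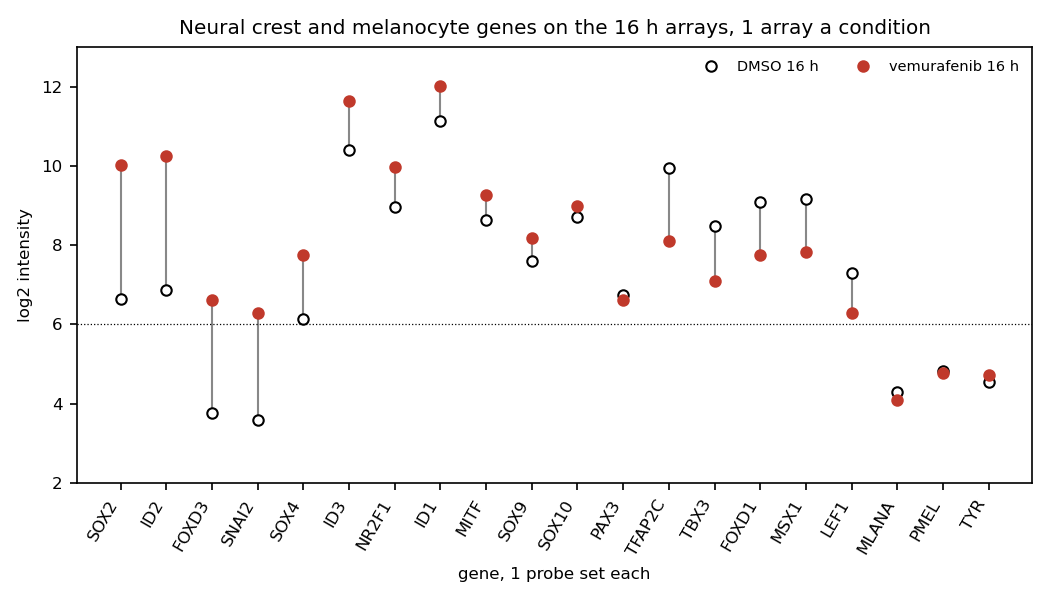
Log2 intensity (y axis) of 20 neural crest and melanocyte genes (x axis) with DMSO (open circles) and vemurafenib (red circles) at 16 h, 1 array each; grey lines join both values of a gene and the dotted line is the floor at 6. SOX2, ID2, FOXD3 and SNAI2 have the longest upward lines, and MLANA, PMEL and TYR stay below the floor on both arrays.

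Most genes of the undifferentiated melanoma state were lower or little different, and PDGFRB had the highest difference, 0.92 (5.11 to 6.03). Of 26 measured, 22 reached the floor, 6 fell and none rose (median -0.69). NT5E fell from 9.27 to 5.71, after -0.47 at 6 h. IGFBP3, which binds insulin-like growth factors, fell from 8.07 to 5.10 after 0.15 at 6 h. HMGA2 (-2.14), PTX3 (-1.91) and EGFR (-1.46) were the other falling members next to FOSL1. AXL, the receptor kinase that names the resistant state, stood at 11.27 with DMSO and 11.10 with vemurafenib. NGFR, the marker of the neural-crest-like state, was below the floor on both arrays, at 4.60 with DMSO and 4.30 with vemurafenib.

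The YAP and TEAD axis, which reads cell spreading and tension, overlapped with these genes. Of 27 measured members, 25 reached the floor, 8 fell and none rose, with a median of -0.69. CCN2 fell from 8.96 to 5.45, the connective tissue growth factor gene, and CCN1 fell from 10.47 to 7.68, its relative, whose 6 h differences were -1.77 and -0.47. ANKRD1 fell from 7.21 to 4.23, another known YAP target. FJX1 (-2.49), the coagulation initiator F3 (-2.01) and AMOTL1 (-1.30) fell with them. The coactivators YAP1 (-0.07) and WWTR1 (-0.74) and the factors TEAD1 (-0.81), TEAD2 (0.77) and TEAD4 (-0.69) did not pass the rule.

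Matrix genes showed a few large changes in both directions. Of 53 measured collagens, laminins and other matrix genes, 37 reached the floor, 7 rose and 3 fell, with a median of 0.05. With averaged probe sets 3 rose, and without probe sets that may match several transcripts 1 did. Next to MGP, ECM2 rose from 4.69 to 7.61, which had differed by 3.91 at 6 h. BGN (1.47), the proteoglycan biglycan, the basement membrane collagen COL4A5 (1.43), the osteopontin gene SPP1 (1.38), EFEMP1 (1.23) and FBN1 (1.21), the fibrillin of elastic microfibrils, rose as well. The 6 h difference of MGP was 0.71. COL13A1 had differed by -1.27 at 6 h, and its 3 probe sets at the floor ranged from -4.97 to -1.46 at 16 h. COL6A3 fell from 6.24 to 4.74, and THBS1 (-1.08), thrombospondin 1, fell. Fibronectin, FN1, stood at -0.80, tenascin C, TNC, at -0.74, and SPARC at 0.05.

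Adhesion receptors changed singly. Of 19 measured integrins 10 reached the floor, of which ITGA2 (-1.30), the collagen receptor chain, ITGA6 (-1.17), the laminin receptor chain, and ITGB5 (-1.13) fell and ITGB8 (1.64) rose. ITGB1, the common beta chain, differed by 0.11. ITGB3, the beta chain of a vitronectin receptor, lay below the floor with its main probe set, which differed by -0.50. Of its 7 probe sets 1 reached the floor, and there ITGB3 stood at 6.08 with DMSO and 2.51 with vemurafenib, a difference of -3.58. Among 58 adhesion and junction genes 30 reached the floor, 4 rose and 1 fell. CD24 had differed by 3.01 at 6 h. DSC2 rose from 4.77 to 7.25 and DSP rose from 6.92 to 8.10, both genes of desmosomes, and the protocadherin PCDH10 (1.40) rose. CDH11 fell from 7.01 to 4.55, the mesenchymal cadherin-11. N-cadherin, CDH2, stood at 9.19 with DMSO and 9.07 with vemurafenib, and E-cadherin, CDH1, was below the floor at 3.13 with DMSO and 3.17 with vemurafenib. In focal adhesions and the actin cytoskeleton, 37 of 42 genes reached the floor, 4 fell and 1 rose: FHL2 (-1.45), the alpha-actinin gene ACTN1 (-1.42), the paxillin gene PXN (-1.38) and FERMT1 (-1.01) against RDX (1.14), a linker of actin to the membrane. Several keratins of stratified epithelium rose. Of 16 measured keratins of all kinds, 10 reached the floor and 5 rose. KRT15 rose from 5.89 to 8.97, and KRT16 (1.68), KRT14 (1.38) and KRT5 (1.24) accompanied KRT13. Their 6 h differences lay between 0.13 and 0.45. Among these risers only KRT14 reached the floor with DMSO. KRT16 went from 4.41 to 6.10 and KRT5 from 5.16 to 6.41. With a floor of log2 7, 3 keratins rose. Between the DMSO arrays, 16 h minus 6 h, KRT13 differed by 1.15, KRT16 by 0.95 and KRT14 by 0.24. KRT10 (0.04) and the keratins of simple epithelium KRT18 (-0.86) and KRT8 (0.55) did not pass the rule, and KRT80 (-1.07) fell. KRT1, KRT2 and KRT4 were below the floor on both arrays. KRT13 was read from its only probe set, which may also match other transcripts.

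**Figure D4:**
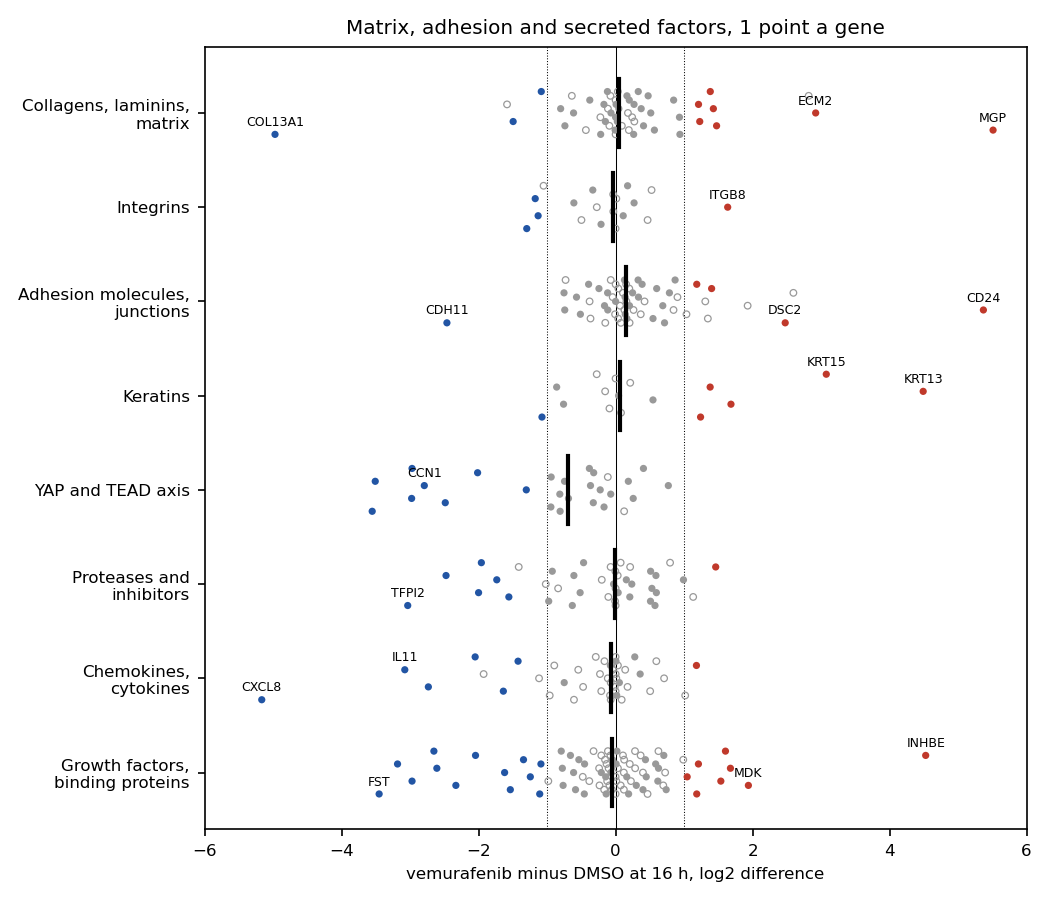
Difference between vemurafenib and DMSO at 16 h (x axis, log2) for each gene of 8 lists of matrix, adhesion and secreted factors, 1 array a condition; red points rose, blue points fell, open points were below the floor on both arrays, black bars are medians and dotted lines mark 2-fold. Most lists centre near 0 with a few genes far out, while the YAP and TEAD axis centres at -0.69.

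Among secreted factors, several inflammatory and EGF-like ligands fell. Of 43 measured chemokine and cytokine genes, 14 reached the floor, 6 fell and 1 rose. After CXCL8, IL11 fell from 9.07 to 6.00, a cytokine of the interleukin 6 family, and IL24 (-2.73) fell. CXCL1 fell from 9.46 to 7.82, which had differed by -3.06 at 6 h. LIF (-2.05) and the NF-kappa B inhibitor TNFAIP3 (-1.42) fell, and IL15 (1.18) rose. IL6 lay below the floor on both arrays, at 4.27 with DMSO and 3.67 with vemurafenib. Of 84 measured growth factors and binding proteins, 48 reached the floor, 13 fell and 8 rose. FST fell from 10.06 to 6.60, the gene of follistatin, and INHBA fell from 9.94 to 7.28, the gene of the activin A subunit, which follistatin binds. INHBE, of the same family, was the member with the highest difference. TGFA fell from 10.43 to 7.25 and HBEGF fell from 7.57 to 5.52, both ligands of EGFR. SFRP1 fell from 10.17 to 7.56 and DKK1 fell from 11.01 to 8.68, both genes of secreted Wnt antagonists, which had differed by -0.57 and -0.37 at 6 h. The risers next to INHBE were MDK (1.94), midkine, IGFBP5 (1.68), DKK3 (1.60), FGF1 (1.54), SEMA3C (1.21), PTN (1.18), pleiotrophin, and METRN (1.04). With all probe sets of a gene averaged, 3 members of the list rose and 12 fell. IGFBP5 had differed by -0.36 at 6 h. VEGFA stood at 8.92 with DMSO and 8.31 with vemurafenib, a difference of -0.61. PTN was read from a probe set that may also match other transcripts, and its specific probe set lay below the floor.

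Some genes of extracellular proteolysis fell, among both the enzymes and their inhibitors. Of 40 measured genes of plasminogen activators, metalloproteases and their inhibitors, 25 reached the floor, 6 fell and 1 rose. TFPI2 fell from 9.87 to 6.84, an inhibitor of plasmin, and TIMP3 fell from 9.77 to 7.81, an inhibitor of metalloproteases. The collagenase MMP1 fell from 8.80 to 6.80. The tissue plasminogen activator PLAT fell from 7.83 to 6.28, and PLAUR (-1.73), the urokinase receptor, and ADAM19 (-2.47) fell. HPSE (1.46), heparanase, rose, and MMP2 stood at 0.16. Among 39 receptor tyrosine kinases 20 reached the floor, of which EPHA2 (-3.72), EGFR, ROR1 (-1.42) and EPHB1 (-1.06) fell. DDR2 (1.73), a collagen receptor, EPHA3 (1.48), NTRK2 (1.41), FGFR3 (1.36), FGFR2 (1.17) and ERBB3 rose. DDR2 had differed by 1.27 at 6 h, and the probe sets of FGFR2 not shared with other transcripts were below the floor. With averaged probe sets 1 receptor rose and 1 fell.

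Central metabolism changed at few genes. Of 30 glucose transport and glycolysis genes, all at the floor, 2 fell and 1 rose, with a median of -0.04. SLC2A3 fell from 7.73 to 5.90, a glucose transporter gene, and HK2 fell from 9.17 to 8.13, the inducible hexokinase. Their 6 h differences were -1.65 and -0.93. SLC2A1 stood at -0.18 against -0.93 at 6 h, and LDHA at -0.33. PDK4 rose from 6.16 to 7.46, the kinase that inhibits pyruvate dehydrogenase. Of 38 genes of mitochondrial biogenesis and the citrate cycle at the floor, the import genes TOMM40 (-1.46) and TIMM8A (-1.22) fell and none rose. TFAM, of mitochondrial DNA transcription, stood at -0.89. PPARGC1A, the coactivator of mitochondrial biogenesis known to rise under BRAF inhibition in MITF-driven melanoma, was below the floor at 4.72 with DMSO and 4.72 with vemurafenib. None of the 35 nuclear genes of oxidative phosphorylation passed the rule. Their median was 0.23, and 32 of the 35 had a difference above 0, against 49.1% of all genes at the floor. Of 20 genes of fatty acid oxidation and lipid handling at the floor, ABCA1 rose from 6.56 to 8.08, the cholesterol exporter, and PPARG fell from 9.18 to 7.95. ABCG1, of the same list, lay below the floor with its main probe set, which differed by 0.76. Only 1 of its 4 probe sets reached the floor, with a difference of 3.17. The 9 beta-oxidation genes of this list all stayed under the rule. The highest were ECI1 (0.94), ACAA2 (0.73), ACADVL (0.72), HADHA (0.68) and CPT2 (0.65). HADHB (0.62), CPT1A (0.39), ACADM (0.14) and HADH (-0.04) were lower. In cholesterol and fatty acid synthesis 1 of 25 genes at the floor rose, LPIN1 (1.25), and none fell. SREBF1, the lipogenic factor, stood at 0.86, and SQLE, squalene epoxidase, at -0.57.

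Amino acid genes and the stress regulators around ATF4, which the series title names, were in part higher at 16 h. Of 19 stress regulators 18 reached the floor and 6 rose, none fell. Their median was 0.56 at 16 h over the 18 genes with values at both times, and 1.16 at 6 h. ATF4 itself stood at 11.21 with DMSO and 11.82 with vemurafenib, a difference of 0.61. The ATF4 partner gene DDIT3 rose from 7.45 to 9.14, and JDP2 (2.09), ATF3 (1.33) and CHAC1 (1.18) rose with NUPR1 and INHBE. CHAC1, which degrades glutathione, had differed by 3.36 at 6 h, VLDLR by 2.78 at 6 h and 0.60 at 16 h, and SESN2 by 2.08 and 0.83. NUPR1 and INHBE were further from DMSO at 16 h than at 6 h, where they stood at 3.26 and 3.83. Of 19 amino acid and one-carbon enzymes at the floor, 6 rose and none fell, and 3 rose without probe sets that may match several transcripts. ASNS rose from 8.82 to 11.44, asparagine synthetase, and ALDH1L2 rose from 5.49 to 8.66, a mitochondrial folate enzyme. PHGDH rose from 8.82 to 10.80, the first enzyme of serine synthesis, which had differed by 0.94 at 6 h. CTH (2.18) and CBS (2.15) of transsulfuration and PSAT1 (1.16) of serine synthesis rose as well. Among 12 amino acid transporters at the floor, the cystine carrier SLC7A11 (1.31) rose and the arginine carrier SLC7A2 (-1.21) fell. The ASNS probe set used is the only one of its 2 that reached the floor, and the probe sets of CBS at the floor may also match other transcripts.

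Ribosome assembly, protein degradation, interferon response and cell death were read next. Of 30 ribosome biogenesis genes, all at the floor, 9 fell and none rose, with a median of -0.91, against -0.22 at 6 h. Against the mean of both DMSO arrays, which includes DMSO at 6 h, 16 fell. Between the DMSO arrays, 16 h minus 6 h, WDR43 differed by -0.66, NOP16 by -0.51 and RRS1 by -0.51, while NCL differed by 0.13. The part of this in the larger count was not tested. NOP16 fell from 10.81 to 9.34, BYSL fell from 8.63 to 7.25 and RRS1 fell from 10.21 to 8.90, all assembly factors of ribosomal subunits. RRP9 (-1.26), NIP7 (-1.13) and WDR43 (-1.13) followed, while NPM1 (-0.07) and UBTF (0.09), the factor of ribosomal DNA transcription, did not pass the rule. Of 50 lysosome and autophagy genes, 46 reached the floor, 4 rose and none fell, a share near the background, with a median of 0.34. Besides MAP1LC3C, whose 6 h difference was 0.47, they were CTSK (1.14), cathepsin K, GABARAP (1.10) and the sialidase NEU1 (1.01). Of 30 interferon response and antigen presentation genes at the floor, 2 rose and none fell. That share of risers was near the 5.24% over all genes at the floor. IRF9 rose from 5.56 to 7.46, the DNA-binding part of the interferon-activated complex, and IFIT1 rose from 5.77 to 7.52. Each was below the floor with DMSO. HLA-B stood at 0.54 and B2M at 0.21, and the HLA-B probe sets may also match other HLA genes. In the BCL2 family, the survival gene MCL1 fell from 10.98 to 9.87 and the p53-linked death gene PMAIP1 fell from 9.38 to 8.15. BMF rose from 5.04 to 6.81, which promotes death of detached cells. BCL2L11, the gene of BIM, stood at 0.04, with its 4 probe sets at the floor between 0.04 and 1.11.

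**Figure D5:**
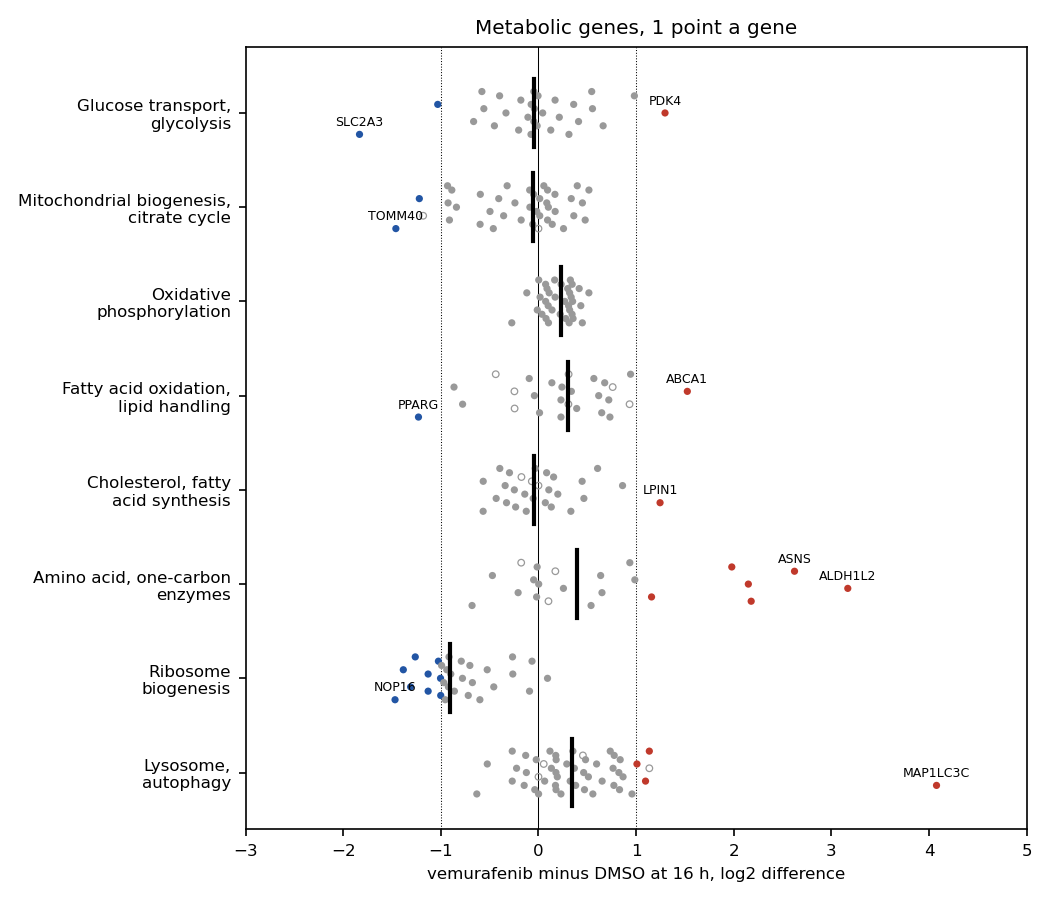
Difference between vemurafenib and DMSO at 16 h (x axis, log2) for each gene of 8 metabolic lists, 1 array a condition; red points rose, blue points fell, open points were below the floor on both arrays, black bars are medians and dotted lines mark 2-fold. Ribosome biogenesis genes centre at -0.91 and oxidative phosphorylation genes at 0.23, within a narrow range of -0.27 to 0.52.

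The 16 h calls were set beside the 6 h values, which share no array with them. Of 498 genes that rose at 16 h and had a 6 h value, 71 (14.3%) also rose at 6 h, none fell, and 258 differed by less than 0.5 at 6 h. Of 536 that fell at 16 h, 142 (26.5%) were also lower past the rule at 6 h, none rose, and 257 differed by less than 0.5. At 6 h the rule called 94 genes higher (0.48%) and 196 lower (1%). At 6 h 18 of the 25 ERK-dependent genes were already lower (median -2.18), and SOX2 and ID2 (2.98 at 6 h) were nearly as far from DMSO then as at 16 h. Replication genes, with none past the rule at 6 h, and KRT13, KRT15, MGP, NT5E, IGFBP3 and DKK1 had little of their difference at 6 h. Whether a difference changed between the times was not tested, since each time had 1 array a condition.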

How the data were processed

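RNA of A375 cells was hybridised to Affymetrix arrays, 1 array a condition. The authors deposited an intensity for each probe set, on a linear scale, and the submitters' processing notes name RMA alone, with no version. RMA yields log2 values, so the deposited intensity had been returned to the linear scale, and log2 was taken here. Of 54675 probe sets, 62 controls were left out. Gene names came from the platform annotation: 41097 probe sets had 1 symbol, 1801 several and 11777 were unlisted, and only the first were used. For 19735 symbols the RefSeq name was checked and none changed.

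A gene was read from its probe set with the highest mean over both 16 h arrays, which gave 19775 genes. For 1118 probe sets (2.04%) the 6 h values sat on other rows of the table: DMSO at 6 h and 16 h correlated at 0.455 there and at 0.992 elsewhere, across probe sets. These rows were kept at 16 h, where both arrays correlated at 0.979, and left out of 6 h values, which removed those of 206 genes.

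The size rule and gene lists are described with the results. The 37 lists, holding 1197 different genes, and the members were chosen with earlier results of these data known. Named genes were, per list, up to 6 highest and 6 lowest past the size rule, members of 1 family or complex, the 15 highest and 15 lowest over all genes (no uncharacterised or non-coding symbols), and 37 genes chosen for the topic, 1 of which is not reported here. Other genes named were chosen after their values were seen. Alternatives covered the floor, threshold, scaling, offset, probe set choice and control array. The code of the rule was run on simulated data with planted differences past the threshold in genes above the floor. Planted differences near the floor or the threshold were not covered. Python 3.11.15 with pandas 2.3.3, numpy 2.4.6 and matplotlib 3.10.9 was used.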

Additional observations from a re-analysis of the deposited data

How the results depend on the processing

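No paired analysis was possible because each condition had 1 array, and leaving out an array leaves no comparison. A 1.5-fold threshold called 1251 genes higher and 1403 lower, and averaging all probe sets of a gene left 301 higher. Otherwise the counts stayed between 334 and 679 higher and between 374 and 649 lower, and no gene changed direction among calls under any of the 11 alternatives. Centring both arrays on their median gave 458 higher and 604 lower (43.1% higher, against 48.0%). Of 259 list medians recomputed, 5 moved: ERK output to -2.70 with an offset of 16 and to -2.14 with averaged probe sets, the E2F list to -0.51 with averaged probe sets, and the G1 list to -0.94 and amino acid enzymes to 0.064 without probe sets that may match several transcripts; the cause was not tested. Of 814 counts of list members called in a direction, 108 moved by over 1.5 times: 37 with the 1.5-fold threshold, 21 with averaged probe sets, 19 without probe sets that may match several transcripts, 8 against both DMSO arrays and the rest under the other settings. Without those probe sets 7 named genes changed sign, ASNS (-0.092), CBS (-0.13), CDKN2D (0.25), FGFR2 (-0.17, also -0.17 with the probe set chosen over 6 arrays), GINS2 (0.075), PPAT (0.43) and PTN (-0.062), each read from a probe set that lay under log2 6 with and without drug. Of 2920 values of 271 named genes, 184 fell short of the rule and 8 were these reversals. Within 0.1 of the threshold lay 89 higher genes inside and 106 outside, and 113 lower genes inside and 146 outside. Of 369 called genes with at least 2 probe sets at the floor, 261 had all of them past the rule and 4 had some of opposite sign. With 1 array a condition no difference has a replicate error, and of the higher genes 252 were below the floor with DMSO, so their folds start from values near background.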

Other observations

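Genes outside the lists were chosen after their values were seen and are given as values. MAP2 rose from 4.23 to 7.66, a microtubule-associated protein, CNTN4 rose from 3.30 to 6.64, an axonal adhesion molecule, and the ankyrins ANK2 (2.79) and ANK3 (2.78) rose with the tubulins TUBB2B (2.83) and TUBA1A (2.03) and the synaptic vesicle gene SYT1 (2.05). Other genes known from neurons were lower, NTM (-2.95), DNER (-2.02), SLITRK6 (-1.70), SNAP25 (-1.69) and VSNL1 (-1.61). ASS1 rose from 4.51 to 7.94, argininosuccinate synthetase, and PCK2 rose from 6.07 to 8.70, mitochondrial PEP carboxykinase. AQP3 rose from 6.68 to 10.16, a glycerol channel. The clock genes DBP (2.23) and NPAS2 (-2.87) moved apart. DTL fell from 9.45 to 6.88, a gene of replication control, and ZNF367 (-2.24), CDCA7 (-1.96), ESCO2 (-1.75), DSCC1 (-1.70) and HELLS (-1.61) were lower with it. The death receptor gene TNFRSF10A fell from 8.04 to 5.79, the complement inhibitor CD55 fell from 11.05 to 8.69 and the vitamin D receptor VDR (-2.06) fell.

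Gene families taken by symbol were also chosen after their values were seen, and most members of each stayed under the size rule. Of all genes at the floor, 49.1% had a difference above 0 and 49.8% below 0. Of 21 nucleoporin genes at the floor 19 had a difference below 0, with a median of -0.67 and none past the size rule, and their 6 h median was -0.12. Of 16 intraflagellar transport genes, which build cilia, 15 had a difference above 0, with a median of 0.52 and none past the rule. Cytosolic ribosomal proteins (55 genes, median 0.05) had 44 differences above 0 and none past the rule. Mitochondrial ribosomal proteins (76 symbols, median -0.28) had 59 differences below 0, and 1 symbol fell. The 76 include the antisense transcript MRPL20-AS1 (0.51). Of 35 TRIM genes at the floor 7 rose and none fell, with a median of 0.25, where 5.24% of all genes at the floor rose. Of 10 exosome genes 2 fell and none rose (median -0.63). Of 9 SRSF splicing factor genes at the floor 2 fell and none rose (median -0.62), where 5.67% of all genes at the floor fell. Of 242 ZNF symbols at the floor 7 rose and 5 fell (median 0.05). They include antisense transcripts, and ZNF436-AS1 (1.26) was one of the 7 that rose.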
